A study of Rattus norvegicus with 2 samples.

Results

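Genes of the bone morphogenetic protein (BMP) pathway were followed in cultured muscle-derived stem cells of diabetic rats: the ligand genes Bmp2, Bmp4 and Bmp6, the genes of the secreted regulators Bmper, Grem1 and Nog, and the target genes Id1, Id2, Id3 and Id4. They were taken from the deposited annotated table as the rows whose gene symbol is exactly one of these names. All 10 were found, each with 1 probe set, among 18489 genes in all. Both samples were skeletal muscle stem cells from male obese Zucker rats homozygous for the fa allele of the leptin receptor gene, 1 labelled early diabetes and 1 labelled late diabetes. Both carry the same allele, so neither is a lean control, and by their labels neither is a non-diabetic control. Per the labels, the cells were cultured on plastic in a medium holding 20% serum. Glucose was 5.6 mM or 22 mM, and both levels are given for both samples. They give neither the age of the rats nor the number of rats or wells behind an array.

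BMPs are secreted dimers that bind paired type I and type II receptor kinases, which phosphorylate Smad1, Smad5 and Smad9. With Smad4 these enter the nucleus and switch on target genes, among which the Id genes are the best known. Id proteins have a helix-loop-helix domain but no basic region to bind DNA. They pair with E proteins and so keep myogenic factors such as MyoD from their target genes. In mouse myoblasts BMP2 blocks muscle differentiation and turns the cells towards a bone-forming fate, and secreted antagonists limit how far the ligands act.

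Each group was 1 Affymetrix Rat Gene 1.0 ST array, so no gene has an error, a standard deviation or a test, and every difference below describes these arrays alone. In RNA from a whole culture, fewer cells expressing a gene and less RNA of it per cell cannot be told apart. Values are log2 of the deposited normalized intensity, and differences are late minus early on that scale. The level of a probe set depends on its probes, so levels are compared between arrays and not between genes. A gene was compared where its brighter value reached the median of all gene values, log2 8.03, which kept 9738 genes. The background level was log2 6.81, the 95th percentile of 1199 olfactory receptor genes, most of which were assumed to be silent in these cells. The median intensity of the 29214 probe sets was 187 for early and 183 for late diabetes.

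The labelled cell type was checked against its markers. Of 10 myogenic markers 6 lay under the floor for comparison on both arrays, among them the stem cell gene Pax7 (7.35 early, 7.38 late), the myoblast gene Myf5 (7.10 and 6.91) and the differentiation gene Myog (6.82 and 6.85). The other 4 passed it: the adhesion gene Ncam1 (11.98 and 12.05), the surface proteoglycan gene Sdc4 (11.43 and 12.32), the integrin gene Itga7 (10.37 and 8.84) and the intermediate filament gene Des (7.61 and 8.28). Of 9 fibroblast and mesenchymal markers 7 passed the floor, among them Thy1 (13.44 and 13.13) and Vim (14.01 and 13.92), while the matrix proteoglycan genes Lum (4.86 and 5.43) and Dcn (6.46 and 7.25) did not. Myod1 was under the floor too (6.85 and 6.65), so the muscle regulators among the markers did not bear out the labelled cell type. Of 6 smooth muscle and pericyte markers 5 passed the floor, among them Tagln (13.72 and 13.48), Cnn1 (13.15 and 12.74) and Myh11 (11.38 and 10.87). All 4 measured endothelial markers lay under the floor on both arrays, and so did 5 of 6 white blood cell markers, with the pan-leukocyte gene Ptprc at 5.84 on both.

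Of the 4 Id genes, Id1, Id2 and Id3 were brighter in the late array by more than 2-fold and Id4 was dimmer by less. Their promoters are shown to set this family's differences beside its sequences. The sequences run 5′ to 3′ on the strand of the gene, from 250 to 41 bases before the transcript start that RefSeq gives on the GRCr8 assembly. Capitals mark the CCAAT box on either strand.
Id1, chr3:161671314-161671523, plus strand: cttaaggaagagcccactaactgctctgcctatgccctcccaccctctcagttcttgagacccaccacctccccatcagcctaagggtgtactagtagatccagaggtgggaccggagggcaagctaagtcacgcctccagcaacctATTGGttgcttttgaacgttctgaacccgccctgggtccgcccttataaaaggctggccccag
Id2, chr6:47471036-47471245, minus strand: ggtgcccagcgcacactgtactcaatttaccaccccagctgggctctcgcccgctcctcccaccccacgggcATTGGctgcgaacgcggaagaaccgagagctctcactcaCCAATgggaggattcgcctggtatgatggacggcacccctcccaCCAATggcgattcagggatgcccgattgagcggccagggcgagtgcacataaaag
Id3, chr5:153656041-153656250, plus strand: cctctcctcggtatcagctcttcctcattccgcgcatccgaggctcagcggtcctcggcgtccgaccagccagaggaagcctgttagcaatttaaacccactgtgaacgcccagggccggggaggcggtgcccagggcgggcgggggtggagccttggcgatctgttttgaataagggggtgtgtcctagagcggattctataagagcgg
Id4, chr17:16598334-16598543, minus strand: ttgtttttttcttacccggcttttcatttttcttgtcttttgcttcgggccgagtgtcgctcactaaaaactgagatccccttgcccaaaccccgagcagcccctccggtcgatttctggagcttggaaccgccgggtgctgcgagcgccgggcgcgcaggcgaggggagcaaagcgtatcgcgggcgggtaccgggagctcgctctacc
The CCAAT box was present 1 time before Id1 and 3 times before Id2, and 0 times before Id3 and Id4. In the same window of 27457 rat promoters, 30.5% held it. The GC-rich Smad site GGCGCC was found before none of the 4 (0 matches each), and 7.40% of all promoters held it. The palindromic Smad site GTCTAGAC also had 0 matches in all 4, as in nearly all promoters (0.160% held it). The E-box CANNTG, to which the partners of Id proteins bind, was found 1 time before Id2 and 0 times before the others, while 59.1% of promoters held it. Motifs were searched on both strands in the letters given, so other forms of a site were not counted. The matches did not overlap in the sequences shown. In mouse Id1 the stretch that answers to BMP lies further upstream than this window. The GC content of the 4 windows ran from 56.7% for Id1 to 61.9% for Id2 and Id3, above the median of 51.4% for all promoters.

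Id2 and Bmper were the farthest apart of the 10 genes. Id2 was at 8.84 early and 11.63 late, intensities of 458 and 3166. That is 6.92-fold higher in late diabetes, a difference of 2.79 that 49 of the 9738 compared genes (0.503%) reached or passed. Id2 is an Id protein found in many proliferating and progenitor cells. Id1, which in muscle precursors holds back differentiation, went from 8.48 to 10.73, intensities of 357 and 1698. It was 4.76-fold higher, and 0.893% of compared genes differed as far upward. Id3, which is close to Id1 in sequence and often expressed with it, went from 10.52 to 11.71, intensities of 1465 and 3340, and was 2.28-fold higher. Of compared genes 4.52% differed as far upward, and both values of Id3 lay well above the floor for comparison. Id4, known from neural and germ line progenitors, ran the other way by less. Id4 was at 8.53 early and 8.04 late, 1.40-fold lower, and its late value sat at the floor.

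**Figure D1:**
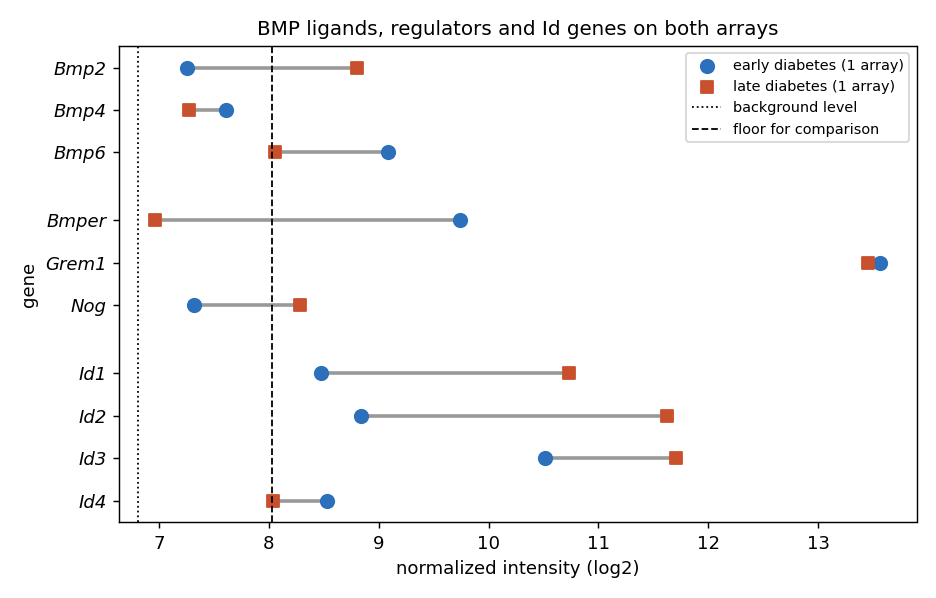
Normalized intensity (log2) of the 10 genes in the early (circles) and late (squares) array, 1 array each, with the background level at 6.81 (dotted) and the floor for comparison at 8.03 (dashed). Id1, Id2, Id3, Bmp2 and Nog lay higher in the late array, and Bmper, Bmp6 and Id4 higher in the early array. Positions are to be compared along a line, not between genes.

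The 3 ligand genes went different ways. Bmp2, a strong inducer of bone and cartilage, was at 7.26 early and 8.80 late, intensities of 153 and 446. It was 2.91-fold higher in late diabetes, and 2.62% of compared genes differed as far upward. Its early value was above the background level used here but below the 99th percentile of the olfactory receptor genes, against which it was at least 2.40-fold higher. Bmp6, a ligand known for its part in iron balance and bone, was at 9.09 and 8.06, intensities of 544 and 266, and so 2.04-fold lower. Of compared genes 2.92% differed as far downward. The call of Bmp6 was lost when the arrays were centred on their medians (a difference of -0.996) and with a pseudocount of 16 (-0.989). Bmp4, which shares most of its receptors and actions with Bmp2, was under the floor on both arrays (7.61 early, 7.28 late, intensities of 195 and 155), so its difference of -0.33 was not counted. Of the 3, Bmp2 alone had the higher value in late diabetes.

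Of the secreted regulators, Bmper stood out in the early array. Bmper encodes a protein that binds BMPs outside the cell and, depending on its amount, dampens or helps their action, as studied mostly in blood vessels. It was at 9.74 early and 6.97 late, intensities of 858 and 125. It was 6.85-fold lower in late diabetes, and 24 of the 9738 genes (0.246%) differed as far downward. Its late value lay just above the background level, and against the 99th percentile of the olfactory receptor genes it was at least 4.61-fold lower. Nog encodes noggin, an antagonist that covers the receptor binding faces of BMP2 and BMP4 and is itself a gene that BMPs induce. It was at 7.32 and 8.28, intensities of 160 and 311, and 1.95-fold higher in the late array, just under the 2-fold threshold. Once a trend of the difference on brightness was removed, Nog passed it (1.03). Without that removal, 6.16% of compared genes differed as far upward as Nog. Grem1, which encodes the antagonist gremlin, was bright on both arrays, at 13.56 and 13.45 (intensities of 12113 and 11214). Its difference of -0.11 was smaller than the SD of 0.22 between probe sets of 1 gene, which covers probe error only.

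Of the 9 genes bright enough to be compared, 4 passed 2-fold upward in late diabetes and 2 downward. Among all compared genes, 5.84% passed it upward and 3.11% downward, 8.95% in all. At 1.5-fold the counts were 5 upward, where 12.1% of all compared genes passed, and 2 downward, where 6.48% did, or 18.6% in either direction. At 3-fold they were 2 upward (Id1 and Id2), where 2.43% of compared genes passed, and 1 downward (Bmper), where 1.32% did, or 3.76% in either direction. The 10 genes were chosen with earlier results of these arrays known, so their share of 66.7% describes them and is not evidence about the pathway. Over all 10 genes the median difference was 0.43, against -0.04 for all measured genes, and over the 9 compared it was 0.96, against 0.06 for all compared genes. The 0.43 lies between the genes that were higher and those that were lower, and the 0.96 is the value of Nog. The 4 Id genes, all compared, had a median of 1.72, and the 3 regulators, all compared, -0.11. The ligands had a median of -0.33 over all 3, which is the value of Bmp4, and of 0.25 over the 2 compared, so its sign rests on the filter.

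**Figure D2:**
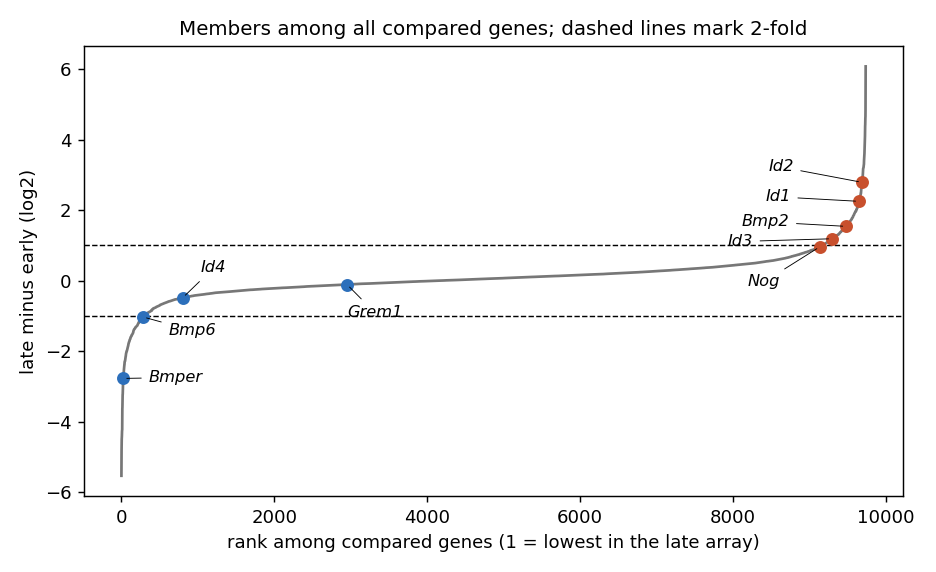
Late minus early difference (log2) of all 9738 compared genes against rank, 1 array per group, with 9 of the 10 genes marked and dashed lines at 2-fold. Id2, Id1, Bmp2 and Id3 sit on the upper limb above 2-fold with Nog just under the line, and Bmper and Bmp6 sit on the lower limb.

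The rest of the pathway was read from 6 lists of other BMP genes. Of 74 genes listed, 70 were measured and 50 were compared. In late diabetes 11 passed 2-fold upward and 2 downward, so 26.0% were 2-fold apart against 8.95% of all compared genes. These lists too were chosen with earlier results of these arrays known. Their share thus describes the listed genes and is not evidence about the pathway. The median difference of the 50 compared genes was 0.07, close to the 0.06 of all compared genes.

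Among the other ligands 2 of 10 measured genes were compared. Bmp3, whose product opposes the bone-forming BMPs, was 2.13-fold higher in the late array (8.49 to 9.58), and Bmp8a, a ligand known from the germ line, was at 8.19 and 7.86. Of 8 compared receptor genes, 6 were within 2-fold and 2 were higher by at least that much, 25.0% against 8.95% of all compared genes. Bmpr1a, a widely expressed type I receptor, was at 11.02 and 10.91, and Bmpr2, the type II receptor, at 11.84 and 11.38. Acvrl1, a type I receptor known from endothelium, was 1.87-fold higher (9.87 to 10.78). Bmpr1b, the type I receptor prominent in cartilage, was 2.03-fold higher (8.46 to 9.48). It fell short of 2-fold under quantile normalization (0.95), with the brightness trend removed (0.97) and with the pseudocount (0.99). Tgfbr3, the co-receptor betaglycan, was 2.47-fold higher (7.29 to 8.59), and at least 2.08-fold against the 99th percentile of olfactory receptor genes.

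The largest difference in the 6 lists was that of an antagonist gene. Fst, which encodes follistatin, a protein that binds activins and several BMPs, was 7.78-fold higher in the late array (9.04 to 12.00). Chrdl2, a chordin-like antagonist, was 5.21-fold higher (7.50 to 9.88), and at least 5.05-fold against the 99th percentile of olfactory receptor genes. Nbl1, the founding gene of the DAN family to which gremlin belongs, was 3.74-fold higher (10.10 to 12.01). Tll1 encodes a tolloid-like protease, a class that cuts chordin and frees BMPs, and it was 3.77-fold lower (11.09 to 9.17). The other 10 of 14 compared regulators were within 2-fold, including the chordin gene Chrd (8.68 and 7.86). The share 2-fold apart was 28.6%, against 8.95% of all compared genes.

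The receptor-activated Smad genes Smad1 (9.95 and 10.01) and Smad5 (9.23 and 9.34) and their partner Smad4 (11.60 and 11.47) were 1.04-fold, 1.08-fold and 1.09-fold apart. Smad6, an inhibitory Smad that BMPs induce as feedback, was 4.37-fold higher in the late array (8.18 to 10.31). Smad7, the other inhibitory Smad, was 1.90-fold higher (8.10 to 9.02). Smad9 was 2.82-fold higher (6.91 to 8.41) from an early value close to background, and at least 1.83-fold against the 99th percentile of olfactory receptor genes. Of 9 compared target genes other than the Id genes, 3 passed 2-fold upward and 1 downward. Among all compared genes 5.84% passed it upward and 3.11% downward. The homeobox genes Msx2 (5.25-fold, 7.52 to 9.91) and Dlx2 (5.14-fold, 8.27 to 10.64) and the bHLH gene Atoh8 (3.69-fold, 8.01 to 9.90) were the higher ones. Against the 99th percentile of olfactory receptor genes Msx2 was at least 5.18-fold higher. Dlx5, a homeobox gene of bone-forming cells, was at least 4.63-fold lower, from 9.02 to a late value of 6.41 below background, and at least 2.79-fold against the 99th percentile of olfactory receptor genes. Msx1, the nearest relative of Msx2, stayed at 8.26 and 8.25, and Runx2, the master regulator of bone-forming cells, was at 9.48 and 9.23.

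The list for partners of the Id proteins held 10 bHLH genes, E protein genes and others, and 5 were compared. At 2-fold 0 were apart, against 8.95% of all compared genes, and at 1.5-fold 3 were, against 18.6%. A count this small says nothing about the list as a group. Of the E protein genes, Tcf3 had intensities of 1024 early and 809 late, Tcf4 3727 and 2417, and Tcf12 2613 and 2277. The mesenchymal bHLH genes Twist1 (10.33 to 11.24) and Twist2 (11.43 to 12.02) had the higher late value. Myod1, Myf5, Myog and Myf6, the myogenic factors that Id proteins restrain, were under the floor on both arrays.

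**Figure D3:**
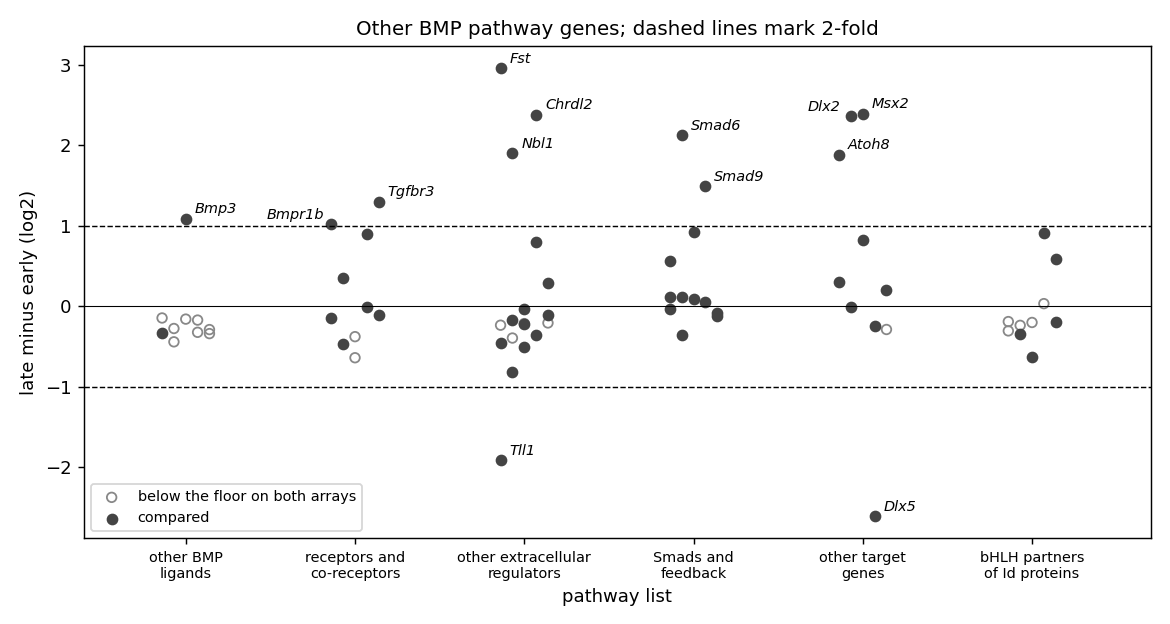
Late minus early difference (log2) of each other BMP pathway gene in 6 lists, 1 array per group. Filled points are compared genes and open points lie below the floor on both arrays. The 13 named genes are 2-fold apart (dashed lines), 11 of them higher and Tll1 and Dlx5 lower in the late array.

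Some of the cell type markers were also 2-fold apart between the arrays. Marker intensities are summed over each list, so bright probe sets weigh most. Of all compared genes 8.95% were 2-fold apart, and counts in lists this small say nothing about a list as a group. The 5 measured bone and cartilage markers summed to an intensity of 4113 early and 968 late, 1 of 3 compared genes being 2-fold lower, the aggrecan gene Acan (11.54 to 7.12). Acan carries most of that sum, and the other 4 summed to 1141 and 829. The 6 smooth muscle and pericyte markers summed to 34773 and 25372, with 1 of 5 compared genes, the pericyte proteoglycan gene Cspg4, at least 2-fold lower (11.15 to 8.77). The 9 mesenchymal markers summed to 44749 and 35210, with 1 of 7 compared genes higher and 1 lower. The higher one was Fap (5.54 to 8.17), at least 2.58-fold from an early value below background. Against the 99th percentile of olfactory receptor genes Fap was at least 1.55-fold higher. The lower one was the collagen gene Col3a1 (11.73 to 10.65). Among the 9, the collagen gene Col1a1 differed most in intensity (12202 and 7397) but was within 2-fold. The 10 myogenic markers summed to 9096 and 10846, with 1 of 4 compared genes 2-fold lower. That gene was Itga7 (intensities of 1319 and 457), while Sdc4 (2767 and 5102) carried most of the higher late sum. The 6 white blood cell markers summed to 486 and 757, and the macrophage gene Cd68 was the 1 compared (6.77 to 8.12). The early value of Cd68 lay below background, so it was at least 2.49-fold higher. The 4 endothelial markers summed to 433 and 507. The part of cell makeup in the differences of the BMP and Id genes was not tested.

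For each of the 6 genes at least 2-fold apart, the nearest compared gene was the one with the smallest distance in the plane of the early and late log2 values, over these 2 arrays only. Nearest to Id2 was LOC689756, at 8.81 and 11.64 and a distance of 0.027, well inside the next distance of 0.42 for Fst. The reference tables give no gene name for LOC689756, and whether its probes share sequence with Id2 was not tested. The level of Id2 is uncertain to that degree. Nearest to Id1 were Cacng7 (0.077) and the cytokine gene Il6 (0.11), to Id3 the tubulin gene Tuba4a (0.035), to Bmp2 the aminopeptidase gene Anpep (0.091), to Bmp6 the membrane raft gene Flot1 (0.016) and to Bmper the gene Palmd (0.18). With 2 arrays many genes share any such pair of values.

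The differences of the 10 genes were set against other ways of processing the same values. No gene changed direction under any of them, and a change of scaling, trend or pseudocount turned the calls of Bmp6 and Nog, both close to 2-fold, and of no other of the 10.

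**Figure D4:**
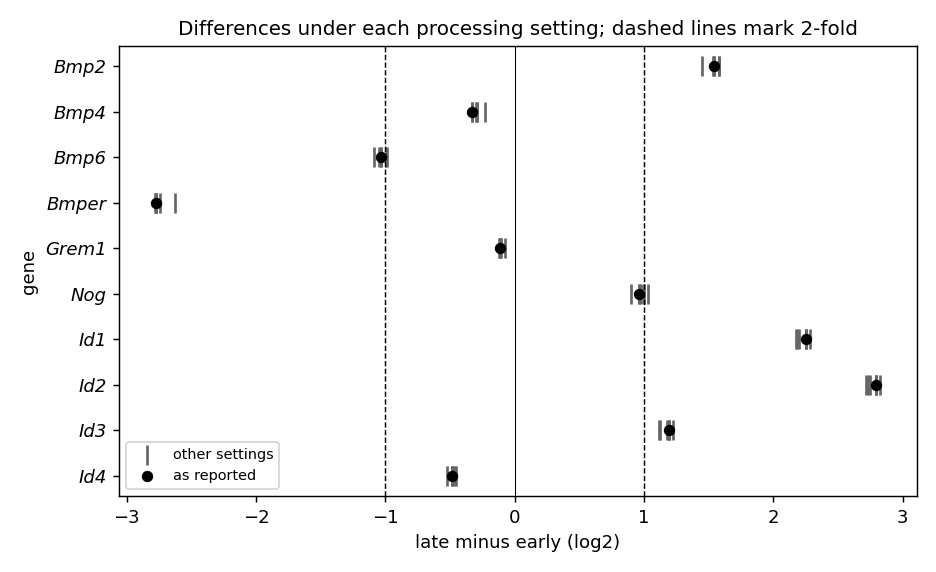
Late minus early difference (log2) of each of the 10 genes as reported (dots) and under the other filters, normalizations, probe set rule and pseudocount (ticks), with dashed lines at 2-fold. Bmp6 (-1.03) and Nog (0.96) lie at the lines, while Id1, Id2, Id3, Bmp2 and Bmper stay beyond them. The 75th percentile filter kept 4 of the 10 genes, so the others, among them Bmp2 and Bmper, have no tick for it.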

How the data were processed

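The authors deposited normalized intensity values on a linear scale, 1 per probe set and array, in an annotated table and a value table that held identical values for all 29214 probe sets. How they corrected, summarised and normalized the arrays is not given in the sources used here. The values were put on a log2 scale without a pseudocount. Probe sets with 1 gene numbered 20164, those with several 328, with none 8696, and 26 symbols were damaged. Probe sets of a gene were averaged. Normalization to a common scale hides differences in total RNA. The number of arrays limits precision.

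The 10 genes, the pathway lists, the markers and the call of 2-fold were chosen with earlier results of these data known. Named are the 10 genes, other pathway genes 2-fold apart or extreme in their list, and the nearest of the 3 closest genes; some genes were added for context after their values were seen. With 1 array per group there was no test. Alternatives were 1.5-fold and 3-fold thresholds, no filter, a 75th percentile filter, quantile normalization, median centring, lowess removal (span 0.3), the brightest probe set, a pseudocount of 16 and a 99th percentile background. The calculations were tested on simulated data. Older symbols were matched through RefSeq (GRCr8). Of the 10 genes, 9 had a promoter there. Python 3.11.15, numpy 2.4.6, pandas 2.3.3 and statsmodels 0.14.6 were used.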

Additional observations from a re-analysis of the deposited data

How the results depend on the processing

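Of the alternatives, 4 can move a measured difference: quantile normalization, median centring, lowess removal and the pseudocount. Under these all 40 differences of the 10 genes moved by less than the 0.22 SD between probe sets of 1 gene, and 0 changed sign. Filters, thresholds and the probe set rule leave these differences as they are. The 99th percentile background turned the values of Bmp2, Bmp4, Bmper and Nog into smaller bounds. Of the 4 genes 2-fold higher, 2 were left at 3-fold and 3 with the 75th percentile filter. Of the 2 genes 2-fold lower, 1 was left at 3-fold, with median centring and with the pseudocount of 16, and 0 with the 75th percentile filter. That filter kept 4 of the 10 genes, and their median was 1.72, in place of 0.43 over all 10 and 0.96 over the 9 compared. Of the other pathway genes, 17 were higher and 4 lower at 1.5-fold, and 7 higher and 2 lower at 3-fold, in place of 11 and 2. With the 75th percentile filter 7 were higher and 1 lower. Among all compared genes 12.1% were higher and 6.48% lower at 1.5-fold, and 2.43% and 1.32% at 3-fold. With that filter 5.49% were higher and 3.47% lower. The filter removes genes by its construction. No paired analysis was possible because each group holds 1 array. Signal close to background limits Bmp2, Bmp4, Nog and the late value of Bmper.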

Other observations

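The promoter windows of the other genes were searched too. The GC-rich Smad site GGCGCC was found 1 time each before the regulator genes Bmper, Grem1 and Nog, and 0 times before Bmp4, Bmp6 and the 4 Id genes. Among all promoters 7.40% held it. The windows of Bmper (67.1% GC), Grem1 (73.8%) and Nog (74.3%) were richer in GC than the median promoter (51.4%), and so was that of Bmp4 (71.9%), which held no match. Bmper was 6.85-fold lower, Grem1 1.08-fold lower and Nog 1.95-fold higher in the late array. The difference of Grem1 was smaller than the SD between probe sets of 1 gene. Any part of these motifs in the differences was not tested. The CCAAT box was found 1 time each before Bmp6, 2.04-fold lower, and Grem1, and 0 times before Bmp4, Bmper and Nog. The E-box was found 2 times before Bmp4 and 0 times before Bmp6, Bmper, Grem1 and Nog, and the palindromic Smad site 0 times before all 5.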
